A study of Mus musculus with 18 samples.

Results

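Whole-genome bisulfite sequencing (WGBS) of splenic CD4+ T cells and CD11b+ myeloid cells was examined at the genes of the helper T cell cytokines. The 10 members were Ifng, Il4, Il13, Il5, Il2, Il21, Il10, Il17a and Il17f, plus Rad50, which lies between Il13 and Il5 and belongs to the same locus. The rule uses gene names and positions and no methylation value, but the genes were chosen with earlier results of these data known. A region counted as a member when it overlapped the GENCODE body of 1 of these genes on mouse build mm10, extended by 20 kb to each side. Of the regions that the authors' tables list, 161 of 553467 in CD4+ cells and 122 of 411770 in CD11b+ cells did so.

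Each cell type came from 4 mutant and 4 control mice of 8 to 10 weeks, and CD11b+ cells of mutants have 6 library entries for their 4 mice. Mutant mice, labelled Dnmt3aR878/+ and called R878H/+ here, carried a floxed Dnmt3a R878H allele on 1 chromosome that Vav1-iCre switches on in blood-forming cells. DNMT3A is the enzyme that sets new methyl groups on CpG cytosines, and R878H is the mouse counterpart of the commonest DNMT3A change in human clonal hematopoiesis. Controls were labelled Dnmt3a+/+ and are called WT; for the transplantation controls of the same study this name covered Cre-positive Dnmt3a+/+ mice and Cre-negative mice with the unrecombined floxed allele, so WT need not mean the absence of every engineered allele. Since Vav1-iCre acts in all blood lineages, the CD4+ cells were mutant themselves, and the mice were on the C57BL/6 background with the sexes pooled. CD11b+ cells were taken first with antibody-coated beads, and CD4+ cells were then selected from what remained of the spleen.

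For every region the tables list 2 methylation means in percent, 1 per genotype as the authors averaged it, and hold no value of a single mouse and no read depth. No error between mice, no interval and no test across mice can therefore be given for any difference below, and the depth behind a region's value is not known; the study's methods give only a nominal coverage of the libraries. Neither mean carries a group name. The first mean was read as WT and the second as R878H/+, and every direction below rests on that reading. Differences are WT minus R878H/+ in percentage points, so that a positive difference is a loss of methylation in R878H/+. A region was called a differentially methylated region (DMR) when it counted more than 10 cytosines in the tables, differed by over 20 points and had a q-value of the region caller below 0.05. The study states its minimum in CpGs, and here it was applied to the number the tables give. On the 4 chromosomes of the members, in 134966 CD4+ and 100175 CD11b+ regions, that number never exceeded the CpG cytosines of both strands together, so more than 10 of them can be as few as 6 CpG sites.

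Naive CD4+ T cells keep most cytokine genes silent and methylated. On activation they take on helper fates marked by different cytokines: Th1 cells make IFN-γ, Th2 cells make IL-4, IL-5 and IL-13, Th17 cells make IL-17A and IL-17F, follicular helper cells make IL-21, and IL-10 restrains responses in several of these fates. Loss of methylation at promoters and distant elements goes with this commitment, and DNMT3A is known to methylate cytokine genes of the fates that a cell has not taken. In the Th2 locus, Il4, Il13 and Il5 share control elements that lie between the genes and inside the 3′ introns of Rad50, a DNA repair gene expressed in most cells.

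The cell types were checked on WT methylation within 2 kb of the starts of marker genes. Among 10 T cell markers, Cd3e stood at 27.8% in CD4+ and 65.2% in CD11b+ cells and Cd2 at 40.9% and 67.0%, whereas Tcf7 was low in both at 15.8% and 15.3%. The other 7 T cell markers, Cd4 itself included, had no region in at least 1 of the tables. Of 8 myeloid markers with regions in both cell types, 6 were lower in CD11b+ cells, among them Spi1, Cebpa and Csf1r, and Mpo by a small margin, with 51.6% beside 51.8% in CD4+ cells. The other 2 encode the chains of the integrin used for the selection: Itgam, for CD11b itself, was at 81.9% in CD4+ and 85.1% in CD11b+ cells, and Itgb2, for its partner chain, at 54.3% and 79.5%. All 4 B cell markers with regions in both tables were lower in CD11b+ cells, with Cd79b at 23.4% there and 63.8% in CD4+ cells, and no NK cell marker had a region. The share of other cells in either selection, and its part in the values below, was not tested. The sample titles carry library numbers from a pair of number series. All 4 CD4+ R878H/+ libraries belong to one series and 3 of the 4 CD4+ WT libraries to the other, so genotype and number series cannot be told apart in CD4+ cells. In CD11b+ cells the series of the CD4+ R878H/+ libraries occurs in R878H/+ only, in 2 of the 6 library entries. All 4 CD11b+ WT libraries belong to the other series, so the 2 are in part confounded there as well.

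In CD4+ cells, 5 of the 77 member regions with more than 10 cytosines were DMRs, all with lower methylation in R878H/+. They lay upstream of Il13, downstream of Il4, in an intron of Rad50, in an intron of Il21 and upstream of Il10. Over all regions of that size, 1.49% were such DMRs in CD4+ cells. In CD11b+ cells 0 of 49 member regions were DMRs, against 1.38% of all regions, by the caller's q-value. Counted as CpG sites of the sequence, the DMRs hold 19 sites at Il13, 10 each at Il4, Il21 and Il10, and 7 at Rad50. With a minimum of more than 10 such sites, a reading chosen after the data were seen, 1 of 22 member regions of CD4+ cells is a DMR, that of Il13, beside 2.94% of all regions with so many sites, and 0 of 29 of CD11b+ cells, beside 2.2%. The sequences of the 5 DMRs are shown because they are the places in these loci that met all criteria. Each is read from mm10 in the direction in which its gene is transcribed, in full or, where longer than 300 bases, over its central 300 bases, with CpG sites in capitals.

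Il13 upstream, chr11:53637453-53637752, minus strand: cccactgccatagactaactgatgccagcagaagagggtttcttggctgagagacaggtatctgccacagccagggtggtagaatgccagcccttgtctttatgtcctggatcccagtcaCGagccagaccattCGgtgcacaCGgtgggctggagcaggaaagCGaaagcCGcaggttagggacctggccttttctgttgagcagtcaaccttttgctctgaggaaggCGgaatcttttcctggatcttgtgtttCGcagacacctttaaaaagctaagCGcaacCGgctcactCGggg
Il4 downstream, chr11:53608355-53608654, minus strand: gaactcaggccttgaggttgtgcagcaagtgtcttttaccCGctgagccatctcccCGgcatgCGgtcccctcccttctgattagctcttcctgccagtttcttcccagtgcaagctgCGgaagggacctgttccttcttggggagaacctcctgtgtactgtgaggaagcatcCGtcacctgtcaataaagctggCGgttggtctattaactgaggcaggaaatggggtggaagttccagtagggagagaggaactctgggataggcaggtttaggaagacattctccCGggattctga
Rad50 intron 21, chr11:53662985-53663144, minus strand: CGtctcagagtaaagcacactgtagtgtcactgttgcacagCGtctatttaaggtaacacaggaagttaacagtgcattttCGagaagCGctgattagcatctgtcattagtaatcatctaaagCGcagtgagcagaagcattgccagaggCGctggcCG
Il21 intron 2, chr3:37231198-37231497, minus strand: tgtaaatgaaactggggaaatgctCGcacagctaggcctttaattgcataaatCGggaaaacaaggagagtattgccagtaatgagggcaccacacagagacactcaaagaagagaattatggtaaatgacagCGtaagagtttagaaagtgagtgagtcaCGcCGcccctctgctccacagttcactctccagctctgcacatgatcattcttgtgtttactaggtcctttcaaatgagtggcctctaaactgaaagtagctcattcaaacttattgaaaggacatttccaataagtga
Il10 upstream, chr1:131010378-131010677, plus strand: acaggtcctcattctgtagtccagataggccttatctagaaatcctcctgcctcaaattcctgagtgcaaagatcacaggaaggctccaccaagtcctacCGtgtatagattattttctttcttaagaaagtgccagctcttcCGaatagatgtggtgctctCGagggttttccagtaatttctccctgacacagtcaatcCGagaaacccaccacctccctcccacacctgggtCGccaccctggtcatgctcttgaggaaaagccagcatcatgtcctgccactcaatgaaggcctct

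The printed stretches hold 10, 7, 7, 5 and 5 CpG sites in this order, where the central 300 bases of all regions listed in CD4+ cells have a median of 4. The Rad50 stretch holds its 7 sites within 160 bases. Short letter patterns of T cell transcription factors were searched on both strands of 300 bases around the centre of each DMR. The Il10 stretch holds AGATAA, the core of GATA sites, and TGTGGT, the core of RUNX sites. The Il21 stretch holds TGANTCA, the AP-1 pattern, and TGTGGT. None of these 3 patterns, nor TGACGT (core of the cAMP response element), GGTGTGA (T-box) or TTCNNNGAA (STAT), stands in the Il13, Il4 or Rad50 stretch. Of all CD4+ regions, 16.6% hold AGATAA in the same window, 22.0% TGTGGT, 9.82% TGANTCA, 4.52% TGACGT, 4.54% GGTGTGA and 9.81% TTCNNNGAA, so that the matches are a description of the letters and no more.

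The size of the loss over the members was modest in most places. The median difference over member regions with more than 10 cytosines was 8.57 points in CD4+ cells and 7.23 points in CD11b+ cells, beside 6.85 and 6.60 points over all regions of that size. Methylation was higher in R878H/+ in 5 of the 161 member regions in CD4+ cells and in 7 of the 122 in CD11b+ cells and lower in the rest; of all listed regions, 95.5% and 93.4% were lower. Losses over 20 points were found in 12 of the 77 member regions with more than 10 cytosines in CD4+ cells (15.6%), beside 6.89% of all such regions. In CD11b+ cells they were found in 3 of 49 (6.12%), beside 7.75%. Counting every listed region, 18 of 161 member regions lost over 20 points in CD4+ cells (11.2%, beside 6.23% of all) and 11 of 122 in CD11b+ cells (9.02%, beside 7.01% of all). No member region gained over 20 points in either cell type.

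Losses over 20 points were also counted by the WT level of a region. In CD4+ cells, 10 of the 20 member regions with WT methylation from 40% to 70% lost over 20 points, beside 29.0% of all regions in that range. Among regions from 70% to 90% it was 6 of 57, or 10.5%, beside 8.73%, and among regions above 90% it was 2 of 81, beside 0.390%. In CD11b+ cells the order of the first 2 ranges differed, with 2 of 15 member regions from 40% to 70% (13.3%, beside 31.6%) and 9 of 43 from 70% to 90% (20.9%, beside 7.71%). The plot of differences by member shows these losses above a body of smaller differences; Ifng and Il17a had none over 20 points.

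**Figure D1:**
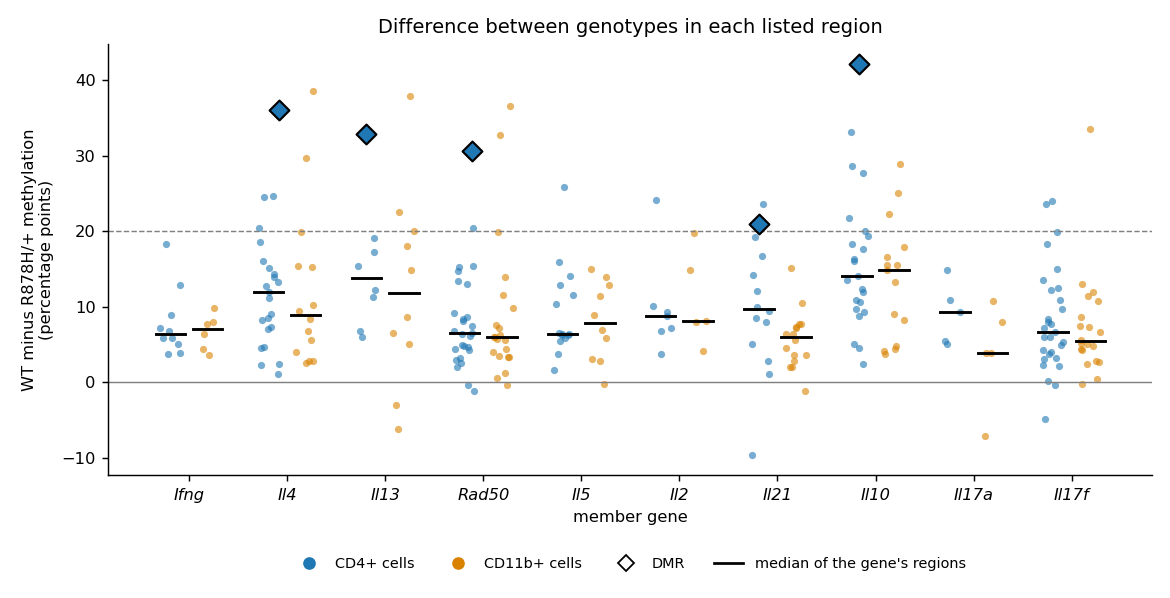
Difference between WT and R878H/+ methylation (percentage points, y axis) in every listed region, by the member gene (x axis) that holds it or lies nearest, in CD4+ cells (blue) and CD11b+ cells (orange). Bars are medians over a gene's regions, diamonds are DMRs, and the dashed line marks 20 points; the 5 diamonds are all in CD4+ cells, and Il10 has the highest medians, 14.1 points in CD4+ and 14.9 points in CD11b+ cells.

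In the Th2 locus on chromosome 11, the DMR upstream of Il13 fell from 74.0% in WT to 41.1% in R878H/+ CD4+ cells (chr11:53637323-53637882, 31 cytosines, q = 0.001). Its centre lies 2.9 kb before the start of Il13, which encodes the Th2 cytokine of mucus production and allergic airway responses, and no exon of a protein-coding gene overlaps it. CD11b+ cells have a pair of regions in the same stretch. The first went from 70.0% to 32.1% over 15 cytosines and the second from 67.6% to 47.5% over 10, and the caller gave both a q-value of 1. The myeloid cells thus lost 37.9 and 20.1 points, beside 32.8 points in CD4+ cells, and only the CD4+ region was a DMR. With 10 cytosines, the second CD11b+ region could not be a DMR by the criteria used. At the start of Il13 itself, CD4+ cells went from 88.6% to 76.4%, while the CD11b+ region across the start was 84.3% in WT and 90.4% in R878H/+. This was the only region nearest a member's start with a higher mean in R878H/+ in either cell type. Within the gene, across exon 3, CD4+ cells went from 88.7% to 69.6% and CD11b+ cells from 83.9% to 61.3%.

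Il4 encodes the cytokine that drives and marks the Th2 fate. Its DMR lies past the end of the gene, 3775 bases beyond the end of the principal transcript (chr11:53608323-53608685), in the part of the GENCODE gene body that only a longer noncoding transcript covers. A known enhancer of Il4 lies downstream of the gene, and whether these bases are part of it was not examined. WT CD4+ cells were methylated at 90.4% there and R878H/+ CD4+ cells at 54.3%, over 15 cytosines with q = 0.0072. The matching CD11b+ region, over 10 cytosines, went from 79.7% to 41.1%, a loss of 38.6 points that was the largest of any member region in CD11b+ cells. With 10 cytosines it could not be a DMR by the criteria used, and its q-value was 1.

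Regions of low WT methylation lay beyond this DMR in both directions. A region 2697 bases past the end of the principal transcript (chr11:53609523-53609763) was at 16.6% in WT and 5.33% in R878H/+ CD4+ cells, the lowest levels of any member region in CD4+ cells. The overlapping, longer CD11b+ region was at 40.0% and 31.7%. On the side away from the gene, a region next to the DMR (chr11:53607625-53607995) was at 97.9% in WT and 95.5% in R878H/+ CD4+ cells. Further out, 6326 bases past the end, the CD4+ region went from 41.9% to 17.4%, and the overlapping CD11b+ region from 19.6% to 4.13%. As listed, WT CD4+ cells had the lower level in the pair nearer the gene, and WT CD11b+ cells in the pair further out. The nearer pair sets 241 bases against a CD11b+ region of 1204 bases, and the further pair shares 141 bases. The levels are thus of stretches that are in part different, and whether the cell types differ at the same bases cannot be told. Nearer the promoter of Il4, the region over exon 1 and intron 1 went from 90.1% to 82.8% in CD4+ cells, and the region 502 bases upstream from 78.5% to 64.1%. A region centred 3.7 kb upstream, between Il4 and Il13, went from 66.2% to 45.8% in CD4+ cells, and the overlapping CD11b+ region from 65.7% to 50.4%.

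The rest of the Il4 window reaches into Kif3a, a kinesin gene, whose body holds 11 of the 23 regions given to Il4 in CD4+ cells and 9 of 14 in CD11b+ cells. Among these, a CD4+ region 19422 bases past the end of Il4 went from 87.8% to 63.1%. The CD11b+ region chr11:53598218-53598509 went from 87.1% to 57.4% with q = 0.00076, the only member region of CD11b+ cells with a q-value below 0.05, and was not a DMR because it counts 10 cytosines. The overlapping CD4+ region went from 78.4% to 63.3%.

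Rad50 showed high and nearly even methylation over the 5′ part of its body and dips in the 3′ part, taken before and after the midpoint. In the 5′ part WT levels ran from 92.4% to 98.2% over 5 CD4+ regions and the differences from 3.21 to 13.4 points. In the 3′ part WT levels ran from 39.1% to 96.9% over 12 regions and the differences from -0.300 to 30.7 points. The split at the midpoint was chosen after these values were seen. The DMR in intron 21 (chr11:53662985-53663144, 13 cytosines, q = 0.00023) was already partly unmethylated in WT CD4+ cells at 41.6%, and stood at 10.9% in R878H/+. CD11b+ cells have a longer region around it that went from 53.1% to 33.1%. Also in intron 21, a region centred 50.5 kb from the start was at 39.1% in WT CD4+ cells and 71.4% in WT CD11b+ cells. It went to 23.8% in R878H/+ CD4+ cells and to 34.8% in R878H/+ CD11b+ cells, so that a WT gap of 32.2 points between the cell types was 11.0 points between the mutants. A region over exons 22 and 23 went from 78.3% to 57.8% in CD4+ cells and from 90.0% to 57.3% in CD11b+ cells. At the start of Rad50 no region was listed within 1.5 kb; the nearest CD4+ region, in intron 2, went from 92.4% to 89.2%, and the nearest CD11b+ region, 2395 bases upstream, from 94.1% to 90.6%.

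Il5, which encodes the growth factor of eosinophils, had no DMR in either cell type. The largest loss was in a CD4+ region centred 17.0 kb after its start (chr11:53737592-53738083), from 57.8% to 31.9%. A region at 14.5 kb went from 46.3% to 30.3% in CD4+ cells over 25 cytosines, and the overlapping CD11b+ region from 40.5% to 25.5%. CD11b+ cells also hold a short stretch at 15.1 kb that was at 9.03% in WT and 6.25% in R878H/+. The regions nearest the start differed little, from 93.6% to 88.1% in intron 2 in CD4+ cells and from 91.3% to 84.4% upstream in CD11b+ cells. Between the cell types, the largest WT gap was at 10.0 kb, where CD4+ cells were at 94.5% and CD11b+ cells at 78.4% in regions that share 2 bases.

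**Figure D2:**
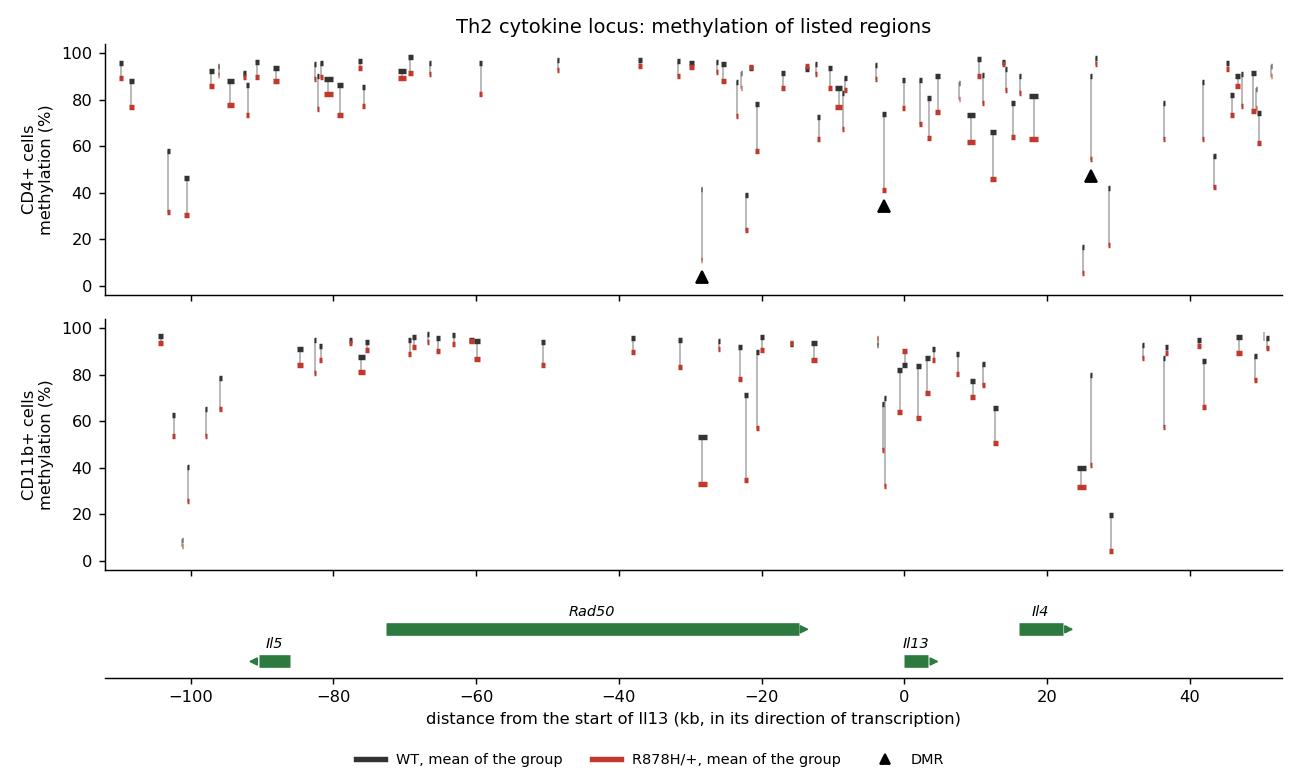
Methylation (percent, y axis) of every listed region of the Th2 locus against its distance from the start of Il13 (kb, x axis), with the group means of WT (black) and R878H/+ (red) joined by a grey line, in CD4+ cells (top) and CD11b+ cells (middle); the bottom track shows the principal transcripts, with arrowheads at their 3′ ends. The 3 DMRs of CD4+ cells (triangles) lie in Rad50, before Il13 and after Il4, and CD11b+ cells show drops at the same 3 places, to 33.1%, 32.1% and 41.1%.

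Il10 encodes the cytokine that dampens macrophage and T cell responses, and CD11b+ cells can make it as well as T cells. Losses ran over its whole window. The median over its regions was 14.1 points in CD4+ cells (23 regions, from 2.38 to 42.2 points) and 14.9 points in CD11b+ cells (15 regions, from 3.78 to 28.9 points). No other member's window reached a median of 14 points in either cell type; Il4 came next in CD4+ cells with 12.2 points, and by the regions given to each gene Il13 with 13.8 points. Methylation was lower in R878H/+ in all 38 of these regions, beside 95.5% of all CD4+ and 93.4% of all CD11b+ regions.

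The Il10 DMR lies 9.3 kb before the start (chr1:131010318-131010736, 15 cytosines, q = 9.3e-07), and its loss from 68.7% to 26.5% was the largest of any member region in either cell type. The CD4+ region that follows it directly, over 10 cytosines, went from 64.9% to 37.3%. In CD11b+ cells the region over the DMR went from 70.4% to 41.4%, and the next, over the end of the second CD4+ region, from 89.8% to 76.4%. A region centred 16.5 kb upstream went from 80.3% to 51.6% in CD4+ cells, with q = 0.64, and from 83.3% to 61.0% in CD11b+ cells.

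Next to the start of Il10, WT levels were among the lowest of its window in both cell types. The region that ends 331 bases before the start was at 43.4% in WT and 27.1% in R878H/+ CD4+ cells. In CD11b+ cells the same end point closes a shorter region at 8.43% and 3.55%. A CD11b+ region just upstream of it went from 51.3% to 26.3%. Inside the gene, CD4+ cells rose from 25.0% in WT around exon 2 to 47.7% over intron 2 and exon 3 and 67.6% in intron 3, and the same regions stood at 14.0%, 26.0% and 34.5% in R878H/+. The single CD11b+ region over much of this stretch went from 29.9% to 14.3%. The next CD4+ region, from intron 3 to intron 4, was at 47.1% in WT and 33.0% in R878H/+. Upstream, centred 4.1 and 4.8 kb before the start, CD4+ cells were at 86.4% and 92.0% in WT, and the CD11b+ region, which overlaps mainly the nearer of them, at 55.7%.

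**Figure D3:**
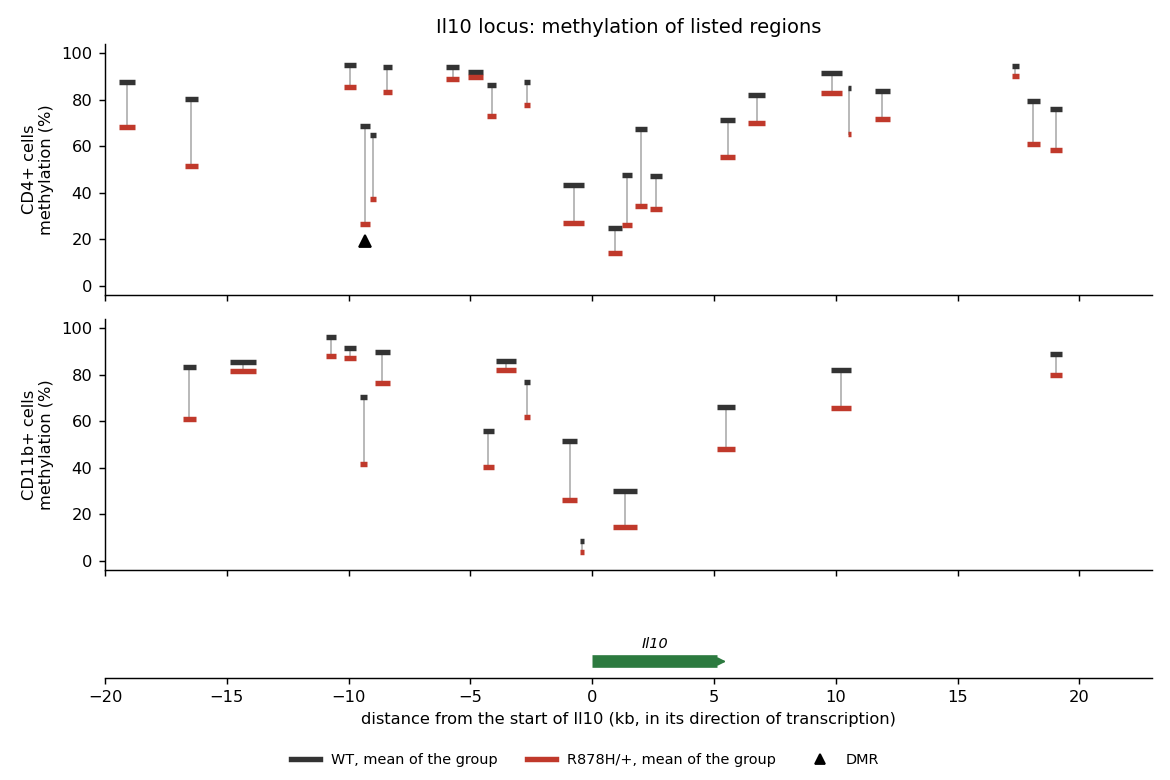
Methylation (percent, y axis) of every listed region around Il10 against the distance from its start (kb, x axis), with group means of WT (black) and R878H/+ (red) joined by a grey line, in CD4+ cells (top) and CD11b+ cells (middle), above the transcript. R878H/+ lies below WT in all 38 regions, beside 95.5% of all CD4+ and 93.4% of all CD11b+ regions. The DMR (triangle) is at 9.3 kb before the start, and the lowest levels are next to the start.

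Il2 encodes the T cell growth factor that naive CD4+ cells make soon after activation. The region across its start, which reaches from the upstream bases to intron 2 (chr3:37125494-37126021, 10 cytosines), went from 82.3% in WT to 58.2% in R878H/+ CD4+ cells, with a q-value of 1. It was the only region nearest a member's start that lost over 20 points. In CD11b+ cells the region across the start went from 58.9% to 39.1%. As listed, the WT level was 23.5 points lower in CD11b+ than in CD4+ cells. The CD4+ region of 528 bases and the CD11b+ region of 487 bases share 176 bases, so the levels are of stretches that are in part different. The 250 bases before the start, as RefSeq places it on mm10, hold 2 CpG sites, in capitals. All of these bases lie in the CD11b+ region. The CD4+ region holds only the part nearest the start, with the later of the 2 sites as printed, and not the earlier one.

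Il2 upstream, chr3:37125955-37126204, minus strand: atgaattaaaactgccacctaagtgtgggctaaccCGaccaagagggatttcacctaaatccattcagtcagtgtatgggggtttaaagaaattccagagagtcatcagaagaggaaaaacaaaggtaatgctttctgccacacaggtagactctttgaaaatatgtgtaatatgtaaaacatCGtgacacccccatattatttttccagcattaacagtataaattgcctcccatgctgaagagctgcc

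The other 6 CD4+ regions of Il2 lost between 3.73 and 10.1 points. A region centred 2.7 kb upstream was at 65.8% in WT and 56.5% in R878H/+ CD4+ cells, and its CD11b+ counterpart at 66.5% and 58.4%.

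Il21, on the same chromosome, encodes the cytokine of follicular helper T cells that acts on germinal center B cells. Its DMR lies in intron 2 (chr3:37230921-37231773, 20 cytosines, q = 0.00061), where GENCODE also has an exon of a retained-intron transcript of Il21 and of an antisense RNA gene. It went from 90.1% to 69.0% in CD4+ cells, a loss of 21.0 points just past the size criterion, while the overlapping CD11b+ region went from 94.7% to 86.9%. A second region of intron 2, centred 2.9 kb after the start, lost 23.6 points over 24 cytosines, from 64.8% to 41.2%, yet had a q-value of 1. Its CD11b+ counterpart went from 82.4% to 67.2%. The region 28 bases before the start went from 81.8% to 62.5% in CD4+ cells, and the one before it, centred 0.9 kb upstream, was at 51.4% in WT and 39.4% in R878H/+. The overlapping CD11b+ region was at 87.8% and 82.2%, a WT gap of 36.4 points between regions that share 168 bases. A CD4+ region 12870 bases past the end of Il21 was at 54.4% in WT. The CD11b+ region that shares 301 bases with it was at 93.8% in WT. Both gaps thus compare stretches that are in part different. The CD4+ region past the end was higher in R878H/+, at 64.1%, the largest gain of any member region.

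Ifng, the defining cytokine gene of Th1 cells, had no DMR and no loss over 20 points in either cell type. Its 10 CD4+ regions lost between 3.71 and 18.3 points and its 6 CD11b+ regions between 3.68 and 9.81 points. The largest losses were in the first part of the gene in CD4+ cells, from 84.9% to 72.0% over exon 1 and intron 1 (chr10:118441224-118441460) and from 86.3% to 68.0% further into intron 1. CD11b+ cells had no listed region in the body of Ifng, so these losses have no counterpart to be set beside. The region centred 1.6 kb upstream went from 92.7% to 86.8% in CD4+ cells and from 91.6% to 81.8% in CD11b+ cells. WT methylation was above 78% in every CD11b+ region and above 82% in all CD4+ regions but 1, centred 17.7 kb after the start, which was at 47.6% in WT and 40.4% in R878H/+.

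Il17a and Il17f, the pair of Th17 genes on chromosome 1, had no DMR in either cell type. Il17a had 5 regions in each table, and none of the 5 in CD4+ cells overlapped any of those in CD11b+ cells. In CD4+ cells the regions of intron 1 went from 90.7% to 81.4% and from 84.5% to 73.7%, and the largest loss, from 52.7% to 37.9%, lay 5699 bases past the end. In CD11b+ cells a region 5012 bases upstream was at 80.9% in WT and 87.9% in R878H/+, the largest gain of any member region in these cells. Il17f had 29 regions in CD4+ cells with a median loss of 6.73 points. The region 164 bases before the start of its principal transcript went from 84.9% to 72.5% in CD4+ cells and from 88.0% to 85.2% in CD11b+ cells. Losses over 20 points came at 7.6 kb upstream, from 68.5% to 44.9% in CD4+ cells, and at 19.3 kb upstream, from 79.8% to 55.8% in CD4+ and from 70.0% to 36.5% in CD11b+ cells. The latter region lies over the last exon of Mcm3, a DNA replication gene. At 7.6 kb the CD11b+ region went from 75.7% to 63.7%. This stretch lies 1107 bases from the 5′ end of the GENCODE body of Il17f, where another coding transcript starts. The largest WT gap between the cell types was at 2.2 kb upstream, with 91.6% in CD4+ and 73.2% in CD11b+ cells in regions that share 1 base.

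**Figure D4:**
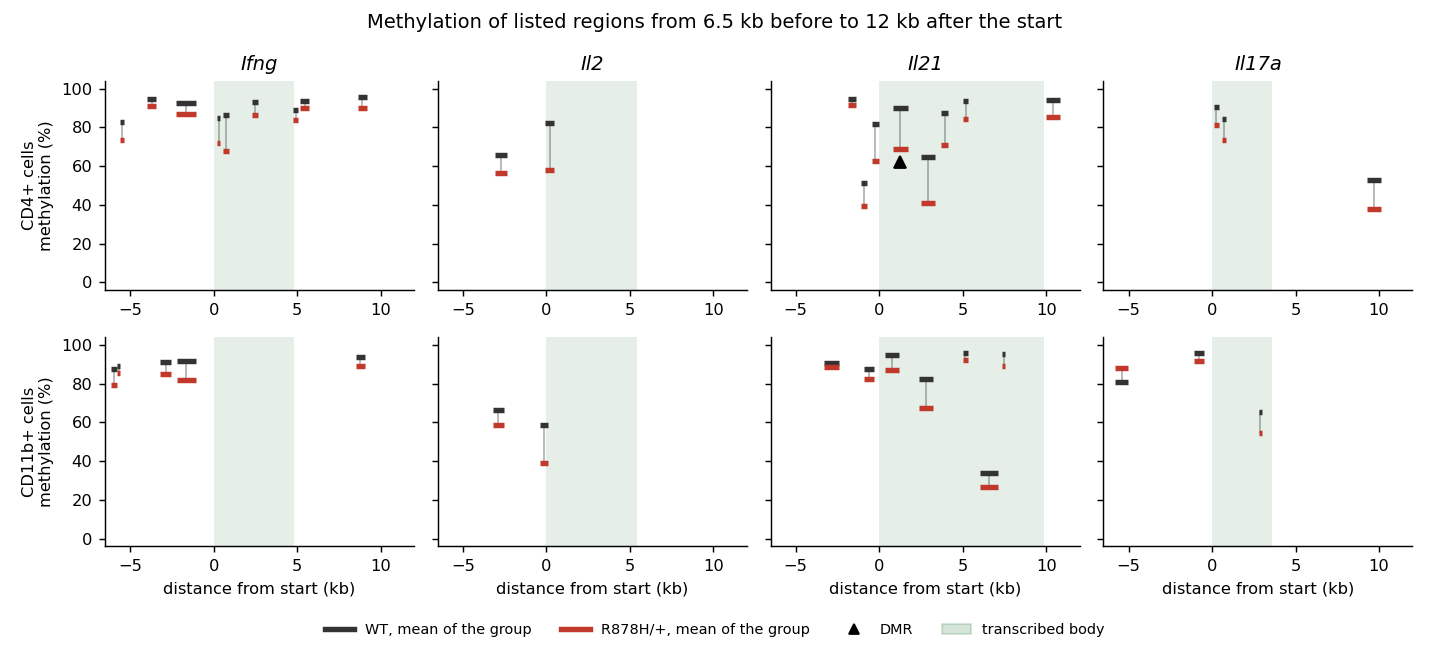
Methylation (percent, y axis) of the listed regions from 6.5 kb before to 12 kb after the starts of Ifng, Il2, Il21 and Il17a (columns; kb in the direction of transcription, x axis), with group means of WT (black) and R878H/+ (red), in CD4+ cells (top row) and CD11b+ cells (bottom row). The shaded span is the transcript; the Il21 DMR (triangle) lies within it, and the region across the start of Il2 drops to 58.2% in CD4+ and 39.1% in CD11b+ cells.

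Taking for each member the region nearest its start, methylation was lower in R878H/+ at 10 of 10 members in CD4+ cells, with a median difference of 12.3 points, and at 9 of 10 in CD11b+ cells, with a median of 5.23 points. Over all coding genes with a listed region, the region nearest the start was lower in 92.4% of 20709 genes in CD4+ cells, with a median of 8.10 points, and in 85.9% of 20277 genes in CD11b+ cells, with a median of 6.95 points. The nearest region lay within 500 bases of the start for 8 members in CD4+ cells and for 6 in CD11b+ cells. WT levels of these regions ran from 43.4% at Il10 to 93.6% at Il5 in CD4+ cells, and from 8.43% at Il10 to 95.8% at Il17a in CD11b+ cells. Listed regions held from 10.1% (Il17a) to 33.3% (Il10) of the CpG cytosines of a member's window in CD4+ cells and from 8.45% to 21.8% in CD11b+ cells. The remaining cytosines have no value here.

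Set side by side where regions of both tables overlap, the members gave 92 pairs. WT methylation differed between the cell types by a median of 0.863 points (CD4+ minus CD11b+), beside 1.14 points over 279942 pairs of all regions. In R878H/+ the median was -1.32 points, beside 0.987 points. WT CD4+ cells were over 20 points below WT CD11b+ cells in 5 pairs and over 20 points above in 6, or 5.43% and 6.52%, beside 3.38% and 6.62% of all pairs. Of the 11, 5 belong to Il10, 2 each to Il4 and Il21, and 1 each to Il2 and Rad50, and some share a region. Only 2 of the 11, 1 at Il10 and that of Rad50, overlapped by at least 50% of both regions, so most compare stretches that are in part different. Both cell types lost methylation in 85 of the 92 pairs, or 92.4%, beside 92.7% of all pairs. Losses over 20 points came in 18 pairs in CD4+ cells and in 11 in CD11b+ cells, or 19.6% and 12.0%, beside 11.6% and 11.4% of all pairs. Both cell types had such a loss in 7 pairs, or 7.61%, beside 5.98% of all pairs: 2 at Il10, 2 at Il13 that share a CD4+ region, and 1 each at Il4, Rad50 and Il17f. Of the 5 DMRs of CD4+ cells, those at Il10, Il13, Il4 and Rad50 had a CD11b+ partner that lost 19.9 points or more, and the Il21 partner lost 7.78 points. The difference in DMR counts between the cell types was not tested, and the 2 tables were cut into regions separately.

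**Figure D5:**
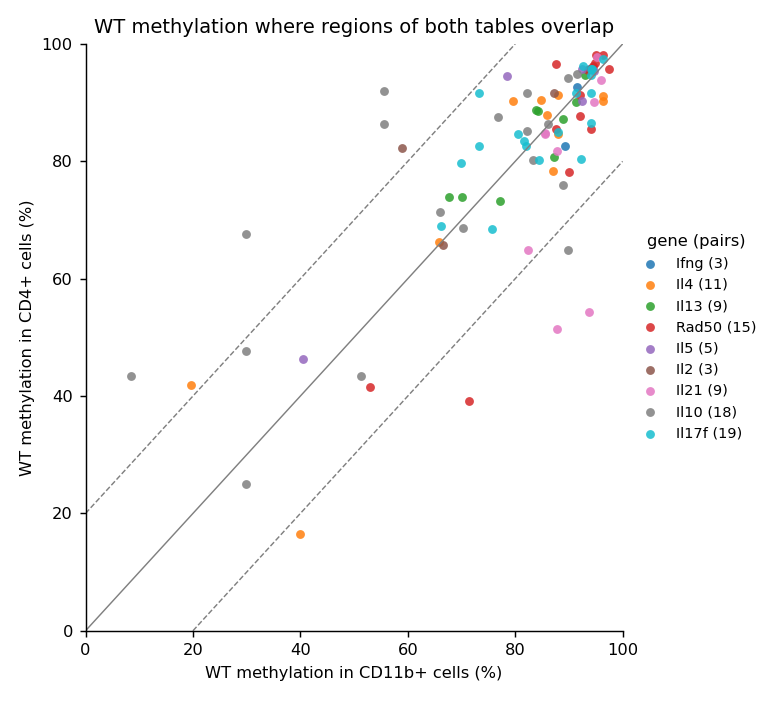
WT methylation in CD4+ cells (percent, y axis) against WT methylation in CD11b+ cells (percent, x axis) for the 92 pairs of overlapping member regions, coloured by gene with the number of pairs in brackets. The solid line marks equality and the dashed lines 20 points to each side; 81 pairs lie between the dashed lines, most of them above 60% in both cell types.

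Other genes of the same pathways were described with the same window, and their counts are set beside those of all coding genes. At least 1 DMR lay within 20 kb of 5 of the 10 members in CD4+ cells, and of 15.8% of all protein-coding genes with a listed region. In CD11b+ cells the members had 0 and all genes 11.4%. The windows of the Th2 genes overlap, so members are not independent, and long genes hold more regions. Of 18 other T cell cytokine genes, 5 had a DMR in CD4+ cells and 1, Ebi3, in CD11b+ cells. Among their 151 CD4+ regions with more than 10 cytosines, 2.65% were DMRs, beside 1.49% of all regions. Among their 96 such CD11b+ regions it was 1.04%, beside 1.38% of all. Tnf, Lta and Ltb, neighbours that encode tumor necrosis factor and the lymphotoxins, share a DMR that overlaps the last exon of Tnf, from 87.5% to 56.6%, and another that went from 84.3% to 49.3%. Tgfb1 had one downstream, from 44.0% to 16.8%. Il27 had the largest loss of this list, from 90.9% to 36.9%, in a region that lies within Apobr.

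Of 15 receptor genes of the member cytokines, 14 had a listed region and 3 had a DMR in CD4+ cells, beside 15.8% of all genes. Of their 191 CD4+ regions with more than 10 cytosines, 2.09% were DMRs, beside 1.49% of all regions. In CD11b+ cells 2 genes, Il2ra and Il17rc, had a DMR, beside 11.4% of all genes. There 1.87% of 107 regions were DMRs, beside 1.38% of all. The CD4+ DMR of Il2ra, the high-affinity chain for IL-2, went from 69.5% to 27.8% within the neighbouring Il15ra. The matching CD11b+ region was also a DMR, from 59.9% to 21.9%. Il21r had one in intron 1, from 57.0% to 26.6%. Il17rc had 2 in CD4+ cells and 1 in CD11b+ cells, the latter centred 1.5 kb upstream, from 38.2% to 9.50%. In CD4+ cells its window also held the largest loss of the list, from 63.1% to 18.6% over 10 cytosines in Il17re, which was no DMR. Il4ra came next to these with a loss of 34.0 points, also over 10 cytosines.

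Among the 19 regulators of helper fates, 14 had at least 1 DMR in CD4+ cells, beside 15.8% of all genes. Of their 604 regions with more than 10 cytosines, 5.13% were DMRs, beside 6.49% for the members and 1.49% for all regions. In CD11b+ cells 8 of 19 genes had a DMR, beside 11.4% of all genes. There 5.26% of 380 regions were DMRs, beside 1.38% of all. Some of these genes have windows with many regions, 355 in CD4+ cells for Rora, so the gene counts are not matched to those shares. The 14 were Stat4, Gata3, Stat6, Maf, Rora, Stat3, Batf, Irf4, Bcl6, Stat5a, Runx3, Nfatc1, Nfatc2 and Prdm1; the region of Stat5a is one of the 2 of its neighbour Stat3. Runx3, which acts with T-bet in Th1 cells and represses Il4, had a DMR over exon 3 that went from 74.5% to 20.2% in CD4+ cells and from 77.4% to 24.5% in CD11b+ cells. Gata3, the regulator of the Th2 fate, had 2 DMRs in CD4+ cells, the first from 64.6% to 26.7%, and 4 in CD11b+ cells. The largest losses of the list were in the windows of Stat6 (64.4% to 9.40% over 10 cytosines inside Nab2, no DMR), Runx3 and Nfatc2 (58.8% to 11.6%, upstream).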

How the data were processed

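Per the study's methods, the authors mapped reads to mm10 with BISCUIT and compared WT with R878H/+ by metilene; versions, parameters and a coverage minimum are not given in the sources used here. GEO's notes name FastQC. The 2 deposited tables give, per region, group mean methylation in percent, the number of CpG cytosines and q-values as computed by the authors' region caller. Their columns of differences and further p-values were not used, and differences were recomputed from the means. There were 0 columns of single samples, so replicates could not be compared, and the depth per region is unknown beyond the nominal coverage in the study's methods. On the 4 chromosomes of the members, every region began and ended at a CpG cytosine of mm10.

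Regions were joined to GENCODE release 21 gene bodies plus 20 kb. Distances in kb run from the start of the principal transcript to a region's centre. Distances in bases run to a region's nearest edge, from the start or, where so stated, from the end of that transcript. For the DMRs outside the 20 kb window, they run from the gene body to the nearest edge. A region in several windows was given to the member that holds it or lies nearest. Named were all members with each DMR, each loss over 20 points and the regions nearest the start, and, per pathway list, the largest losses and genes with a DMR. The members and lists were chosen with earlier results of these data known. Results of some listed regulators are not reported here. RefSeq promoters matched 8 of 10 members. Counting, windows and pairing were tested on simulated data. Python 3.11.15, pandas 2.3.3, numpy 2.4.6 and pysam 0.24.0 were used.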

Additional observations from a re-analysis of the deposited data

How the results depend on the processing

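No paired analysis was possible because the tables hold group means and no value of a single mouse, and for the same reason no replicate could be left out. The 5 DMRs of CD4+ cells became 3 in gene bodies alone, 1 with more than 20 cytosines or with more than 10 CpG sites in the sequence, 12 without the q-value, and 7 with 50 kb to each side. The 0 DMRs of CD11b+ cells became 1 without a minimum of cytosines and 3 without the q-value, and stayed at 0 in the other settings. The 12 CD4+ regions that lost over 20 points became 6 in bodies alone, 26 with 50 kb, 30 for losses over 10 points, 5 for losses over 30 points and 2 with more than 20 cytosines; the 3 of CD11b+ cells became 1, 7, 15, 2 and 0 in the same settings, and 11 without a minimum of cytosines. With more than 20 cytosines the median differences rose to 16.0 points in CD4+ and 12.0 points in CD11b+ cells. These medians rest on few member regions, and the value over all listed regions of that size was not computed. The WT gap between the cell types, 0.863 points, became 1.37 points with 50% reciprocal overlap, 1.40 points in bodies alone and -0.482 points as a mean weighted by shared length, so its sign is not settled. The R878H/+ gap of -1.32 points became -0.488 and -0.575 points in the first 2 of these settings. Of 54 alternatives 31 stayed within 1.5 times the value reported, among them leaving out regions inside other genes; that setting and the count of CpG sites were chosen after seeing the data. The unknown depth per region limits what a missing region means.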

Other observations

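With the window widened to 50 kb, CD4+ cells gained 2 DMRs beyond the 20 kb of the report. Of all CD4+ regions with more than 10 cytosines, 1.49% were DMRs. The regions in the added flanks were not counted, so no share can be set beside it and the 2 are given as a description only. The first lies 24.4 kb past the end of Ifng (chr10:118470282-118471111, 22 cytosines) and was at 33.5% in WT and 10.6% in R878H/+, with a q-value of the region caller of 0.0011. Ifng is known to have distant enhancers on both sides, and whether these bases are part of one was not examined. The second lies 25.2 kb before Il10 (chr1:130993380-130994659, 26 cytosines), from 79.4% to 50.4% with q = 2.8e-08. No DMR of CD11b+ cells lay within 50 kb of a member, where 1.38% of all CD11b+ regions with more than 10 cytosines were DMRs.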
